A study of Mus musculus with 40 samples.

Results

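Hmgcs1, Mvk, Pmvk, Mvd, Idi1 and Fdps, the 6 enzymes that carry the mevalonate pathway toward farnesyl diphosphate, were followed in the livers of 40 mice. They were taken by name as a block of the mevalonate and isoprenoid pathway, and every probe set annotated to a single one of these symbols was used. All 6 genes were on the array, with 14 probe sets of 45037 (Hmgcs1 5, Mvk 2, Pmvk 1, Mvd 2, Idi1 2, Fdps 2). Of these, 13 reached the expression minimum that 18935 probe sets of the whole array passed, namely log2 4 on at least 3 arrays of 1 group. The study asked how chemically unlike activators of the transcription factor Nrf2, which is held in check by Keap1, differ in the liver responses that they evoke. Each of 10 groups held 4 male C57BL/6J mice aged 12 weeks, 20 Nrf2-null and 20 wild type (Wt), with 1 Affymetrix expression array per liver. By gavage they had received D3T at 300 μmol/kg, vehicle, or CDDO-Im at 3, 10 or 30 μmol/kg, 3 times over 5 days, and livers were collected 24 h after the last treatment. All groups shared the vehicle of Cremophor-EL, dimethylsulfoxide and phosphate-buffered saline and a purified AIN-76A diet without ethoxyquin. D3T is a dithiolethione, a small ring with sulfur atoms, and CDDO-Im is the imidazolide of a synthetic triterpenoid. The Nrf2-null mice lack the gene in every cell from conception and were bred from heterozygotes, so a difference between genotypes need not arise in hepatocytes. Whole liver was measured, so that fewer cells of a type and less RNA per cell cannot be told apart.

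Cells build cholesterol from acetyl-CoA through mevalonate, a chain of phosphorylations and a decarboxylation that yields isopentenyl diphosphate, and the condensation of these units to farnesyl diphosphate. From there the path runs to squalene and the sterols, or to the lipids that anchor prenylated proteins, carry sugars as dolichol and form the tail of ubiquinone. The genes of the pathway are known targets of SREBP-2, a membrane-bound transcription factor that is released when sterols in the endoplasmic reticulum fall, and liver is a main site of this synthesis.

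The bases in front of 4 of the genes are shown because these promoters carry the CCAAT boxes that bind NF-Y, a partner of SREBP-2 at sterol-regulated genes. RefSeq promoters (mouse, GRCm38.p6, 250 bases before to 50 bases after a start site) were listed for 5 of the 6 genes. Capitals mark CCAAT on either strand (ATTGG when read on the strand printed) and, in Hmgcs1, the sterol element CACNCCAC, and only bases that lie in no RefSeq gene are printed.
Hmgcs1, chr13:119690101-119690350, plus strand: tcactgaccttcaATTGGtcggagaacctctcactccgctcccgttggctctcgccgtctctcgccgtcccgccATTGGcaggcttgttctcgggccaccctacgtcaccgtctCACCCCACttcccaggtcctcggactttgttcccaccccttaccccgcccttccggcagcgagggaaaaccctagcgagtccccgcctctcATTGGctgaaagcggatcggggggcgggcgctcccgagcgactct
Mvk, chr5:114444074-114444263, plus strand: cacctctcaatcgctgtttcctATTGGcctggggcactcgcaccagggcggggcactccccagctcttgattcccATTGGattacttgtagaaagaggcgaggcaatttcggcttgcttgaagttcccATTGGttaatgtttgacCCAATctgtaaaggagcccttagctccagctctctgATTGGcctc
Mvd, chr8:122443423-122443655, minus strand: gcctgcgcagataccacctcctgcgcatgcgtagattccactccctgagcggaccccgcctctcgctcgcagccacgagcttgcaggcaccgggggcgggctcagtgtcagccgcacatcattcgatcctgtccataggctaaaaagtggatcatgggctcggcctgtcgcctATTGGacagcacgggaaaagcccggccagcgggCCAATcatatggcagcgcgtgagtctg
Idi1, chr13:8885356-8885605, plus strand: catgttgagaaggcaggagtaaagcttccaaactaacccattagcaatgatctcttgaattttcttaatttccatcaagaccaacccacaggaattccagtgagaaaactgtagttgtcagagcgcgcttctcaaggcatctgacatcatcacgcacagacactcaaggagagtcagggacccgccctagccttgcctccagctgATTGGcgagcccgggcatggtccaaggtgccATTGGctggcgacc

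Counted from the start site, CCAAT lay at -237, -176, -45 and 11 in Hmgcs1 (the last lies behind the start site and is not printed), at -173, -120, -67, -50 and -14 in Mvk, at -60 and -27 in Mvd and at -45 and -14 in Idi1. Of 32851 RefSeq promoters of the same length, 37.4% held at least 1 CCAAT and 11.7% held 2 or more. The sterol element was matched once, at -136 in Hmgcs1, and was present in 6.24% of all promoters. In Pmvk, which has 2 listed start sites, 1 promoter held a CCAAT at -136. The Nrf2-type antioxidant element TGACNNNGC (12.4% of all promoters) was matched at -12 in the other Pmvk promoter and at -221 in the Mvk window, where the bases belong to the neighbouring gene Mmab. GGGCGG, the box of Sp1, was found in Hmgcs1, Mvk, Mvd and Idi1 and in 35.7% of all promoters, and the E-box CACGTG in none of the 5 genes and in 7.15% of all. All motifs were searched on both strands, and a match is a description of letters only.

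The labels and arrays were checked first. Nfe2l2, which encodes Nrf2, read log2 2.72 to 3.10 in the 20 Nrf2-null mice and 10.77 to 11.75 in the 20 Wt mice on 1 probe set, whereas its second probe set overlapped between genotypes (5.96 to 7.47 in Nrf2-null, 4.49 to 7.10 in Wt). The hepatocyte products Alb, Ttr and Apoa1 read 15.87 to 16.46 throughout, and the median of the probe sets past the minimum was 7.5 to 7.86 per array. One mouse stood apart for these enzymes: Nrf2-null D3T replicate 4 was the lowest of all 40 mice for each of the 6 genes. The Nrf2-null D3T group, and every result that its spread touches, is therefore given with and without this mouse. In that mouse the log2 of the summed intensity of Kupffer cell markers (7 of 7 measured) was 11.62, against 13.21 to 13.75 in the other 3 mice of the group. Its endothelial markers (5 of 6 measured) summed to 10.74, against 12.12 to 12.39, and its exocrine pancreas markers (2 of 6) to 7.21, against 9.56 to 10.40. Its hepatocyte markers (6 of 8) summed to 18.53, against 18.43 to 18.50. Lists of sterol genes were low in that mouse too. Enzymes from squalene to cholesterol (12 of 13 measured) summed to 14.66, against 16.30 to 16.52 in the other 3 mice. Other SREBP-2 targets (5 of 8) summed to 12.08, against 14.91 to 14.93. Genes of sterol sensing and SREBP regulation (9 of 10) summed to 14.52, against 15.57 to 15.74. Genes of isoprenoid use (13 of 15) summed to 13.49, against 13.34 to 13.41. The part of any of these lists in the low enzyme values was not tested.

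Each gene was followed by its probe set of highest mean, named here as it stands on the array: Hmgcs1 by 1433443_a_at, Mvk by 1418052_at, Pmvk by 1427893_a_at, Mvd by 1448663_s_at, Idi1 by 1451122_at and Fdps by 1423418_at. All levels are log2 intensities after GCRMA, 1 unit being a doubling, and levels of different probe sets are not set against each other. Averaged over the 6 genes, the level was 12.08 ± 0.26 in Wt mice given D3T (SD, n = 4), the highest of the 10 groups. Nrf2-null mice given D3T came next only without replicate 4, at 11.62 ± 0.21 (SD, n = 3), and with it they averaged 10.76 ± 1.71 (SD, n = 4), where only Nrf2-null vehicle mice were lower. The remaining 8 groups lay between 10.73 ± 0.58 in Nrf2-null vehicle mice and 11.21 ± 0.21 in Wt mice given 10 μmol/kg CDDO-Im. In that stretch each group differed from its neighbours in the order by less than the spread of its mice. Wt D3T replicate 4 had the highest value of all 40 mice for 5 of the 6 genes, and Wt D3T replicate 1 for Mvd.

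**Figure D1:**
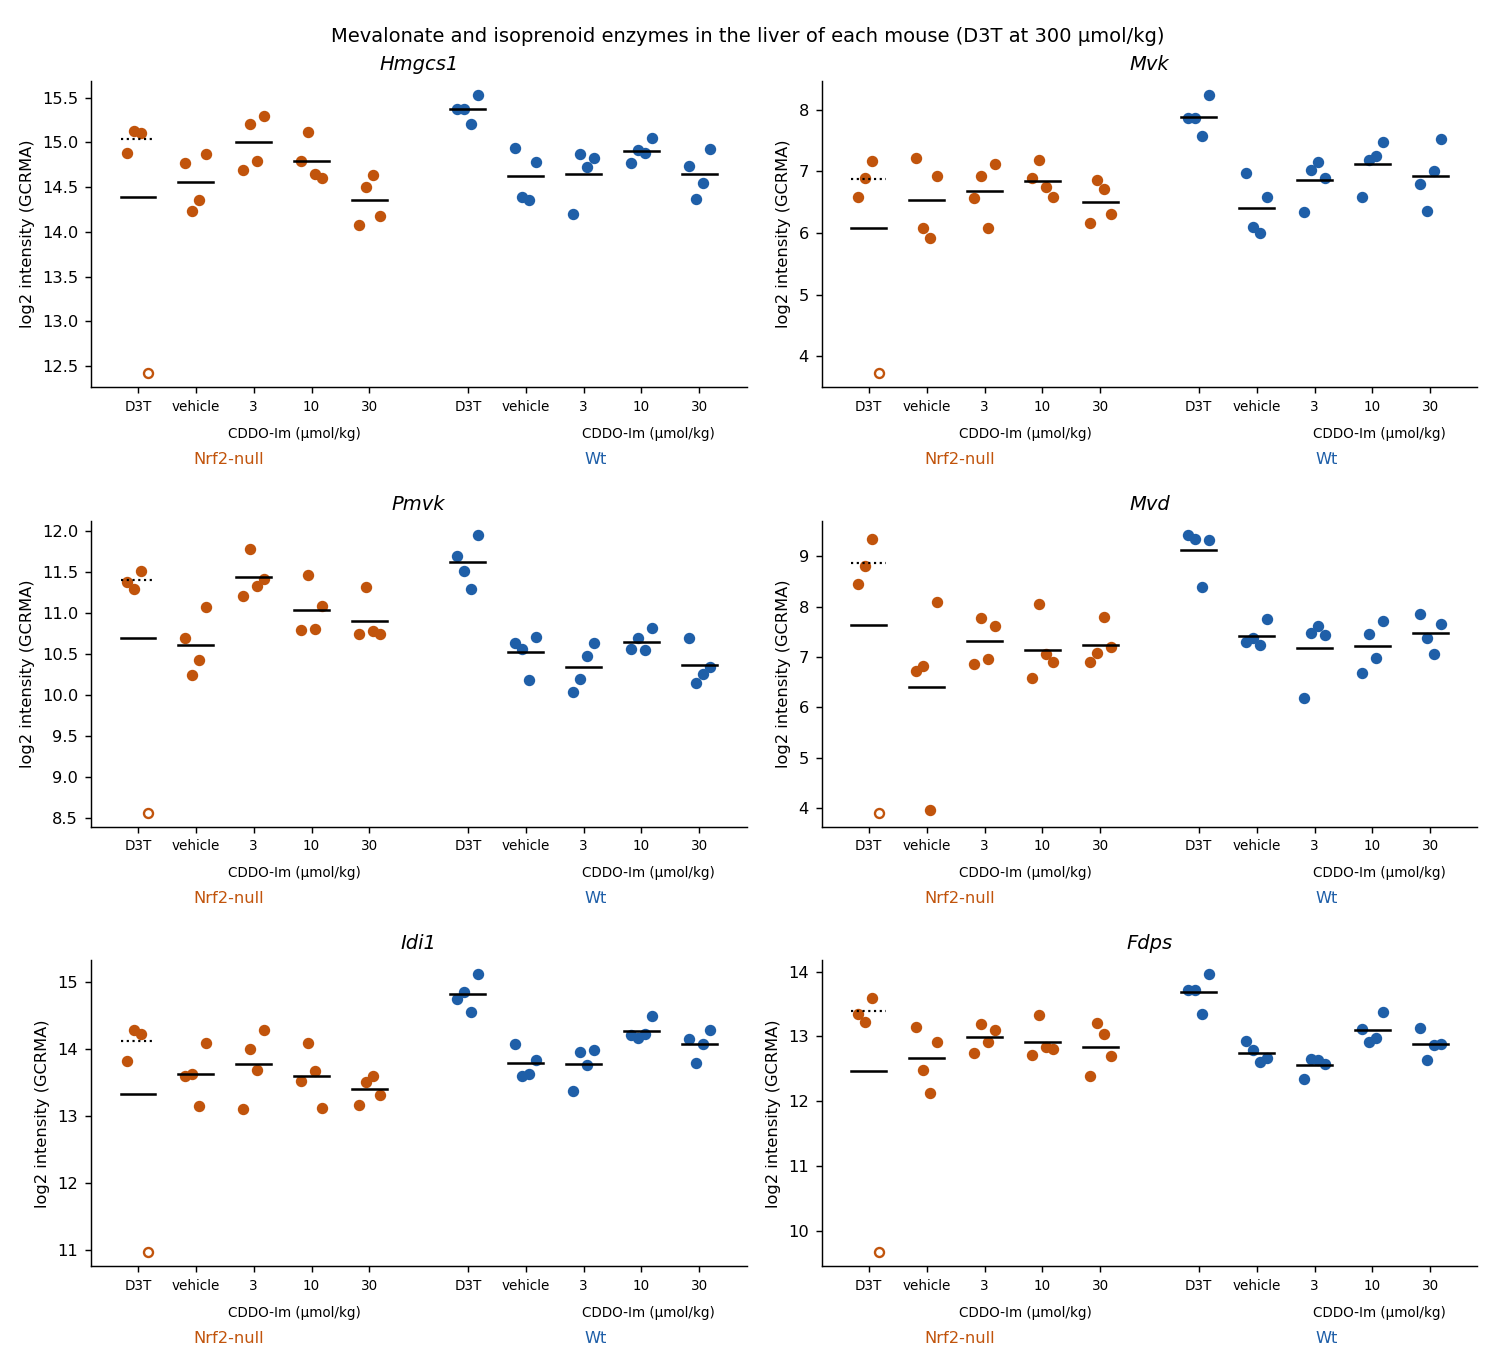
The log2 intensity (GCRMA) of each of the 6 enzymes in every mouse, with D3T left of vehicle and the CDDO-Im doses to the right (Nrf2-null at left, Wt at right). Points are mice, lines are group means, the open point is Nrf2-null D3T replicate 4 and the dotted line is the mean of the other 3 mice. All 4 Wt mice given D3T lie above all 4 Wt vehicle mice for each gene.

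In Wt liver the transcripts of all 6 enzymes were higher with D3T than with vehicle, by 1.69-fold for Hmgcs1 to 3.27-fold for Mvd, and for none of them did the mice of the groups overlap. The median log2 difference of the 6 genes was 1.06, against 0.00 over all probe sets tested. Non-overlap of this direction was found for 6 of 6 genes and 12 of their 13 probe sets, against 7.56% of all probe sets. Each gene gave p = 0.029 in an exact two-sided permutation test, the smallest that 4 mice against 4 allow. D3T mice carry animal numbers of another range than vehicle mice, so a possible difference in cohort cannot be told apart from the treatment.

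Hmgcs1 makes HMG-CoA, the substrate from which mevalonate is formed. Its level was 15.37, 15.37, 15.21 and 15.53 in the 4 Wt D3T mice, against 14.94, 14.39, 14.35 and 14.78 in the 4 Wt vehicle mice. The lowest D3T mouse lay above the highest vehicle mouse, with a log2 difference of 0.75 (95% interval 0.09 to 1.42). Of its other probe sets, 1433444_at, 1433445_x_at and 1433446_at differed by 0.79, 0.82 and 1.36. The dim 1441536_at differed by 1.04, with overlapping mice.

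Mvk phosphorylates mevalonate and Pmvk adds the second phosphate. Mvk read 7.87, 7.87, 7.58 and 8.24 in Wt D3T mice, against 6.98, 6.10, 6.00 and 6.58 in Wt vehicle mice, a log2 difference of 1.48 (0.59 to 2.36). Pmvk read 11.70, 11.51, 11.30 and 11.96 in Wt D3T mice, against 10.64, 10.56, 10.18 and 10.71 in Wt vehicle mice, a difference of 1.09 (0.37 to 1.81). For both kinases every D3T mouse was above every vehicle mouse. The second Mvk probe set, 1430619_a_at, lay at 5.25 to 6.03 with D3T and at 5.10 to 5.13 with vehicle. It is dim, and the vehicle mice were nearly equal on it (SD 0.02), as were Wt mice at 3 μmol/kg CDDO-Im (5.12 to 5.14). Its values may lie near background, where differences are cut short.

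Mvd removes carbon dioxide and phosphate from mevalonate diphosphate to give isopentenyl diphosphate, and it had the largest difference of the 6 genes. Its level was 9.43, 9.34, 8.39 and 9.33 in Wt D3T mice, against 7.29, 7.37, 7.24 and 7.75 in Wt vehicle mice. The log2 difference was 1.71 (0.24 to 3.18), and replicate 3 of the D3T mice stood below the other 3. The second probe set of Mvd, 1417303_at, differed by 2.08, with 7.58 to 8.58 in D3T mice and 5.70 to 6.49 in vehicle mice.

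Idi1 converts isopentenyl diphosphate to its isomer dimethylallyl diphosphate, and Fdps joins the isomers to farnesyl diphosphate. Idi1 read 14.75, 14.86, 14.55 and 15.12 in Wt D3T mice, against 14.08, 13.59, 13.63 and 13.84 in Wt vehicle mice (log2 difference 1.03, 0.22 to 1.84). Fdps read 13.71, 13.71, 13.35 and 13.96 in Wt D3T mice, against 12.93, 12.79, 12.60 and 12.67 in Wt vehicle mice (0.94, 0.04 to 1.83). Neither gene overlapped between the groups. The second Idi1 probe set, 1423804_a_at, differed by 0.72 without overlap, and the second Fdps probe set, 1438150_at, stayed at 2.32 to 2.36 on all arrays, below the minimum.

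In the limma fit over all 40 arrays none of the 6 genes passed an adjusted p of 0.05 in this comparison (1.92% of all probe sets were called higher), with adjusted p from 0.053 for Mvk to 0.26 for Fdps, and all 6 had an unadjusted p below 0.05. Among the single probe sets, the dim 1430619_a_at of Mvk (adjusted p = 0.043) and 1417303_at of Mvd (adjusted p = 0.043) passed. All groups share 1 estimate of the spread in that fit, and Nrf2-null D3T replicate 4 widens it for these genes: the pooled SD within groups was 0.64 with and 0.26 without that mouse for Fdps, and 0.48 with and 0.25 without it for Hmgcs1. With the mouse left out, all 6 genes and 11 of the 13 probe sets rose with D3T in Wt liver, against 3.27% of all probe sets. The adjusted p was 0.0055 for Hmgcs1, 0.0011 for Mvk, 0.00021 for Pmvk, 0.035 for Mvd, 0.0022 for Idi1 and 0.0012 for Fdps, with unchanged log2 differences. A fit to the 20 Wt arrays alone likewise called 6 of 6, against 3.84% of all probe sets.

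**Figure D2:**
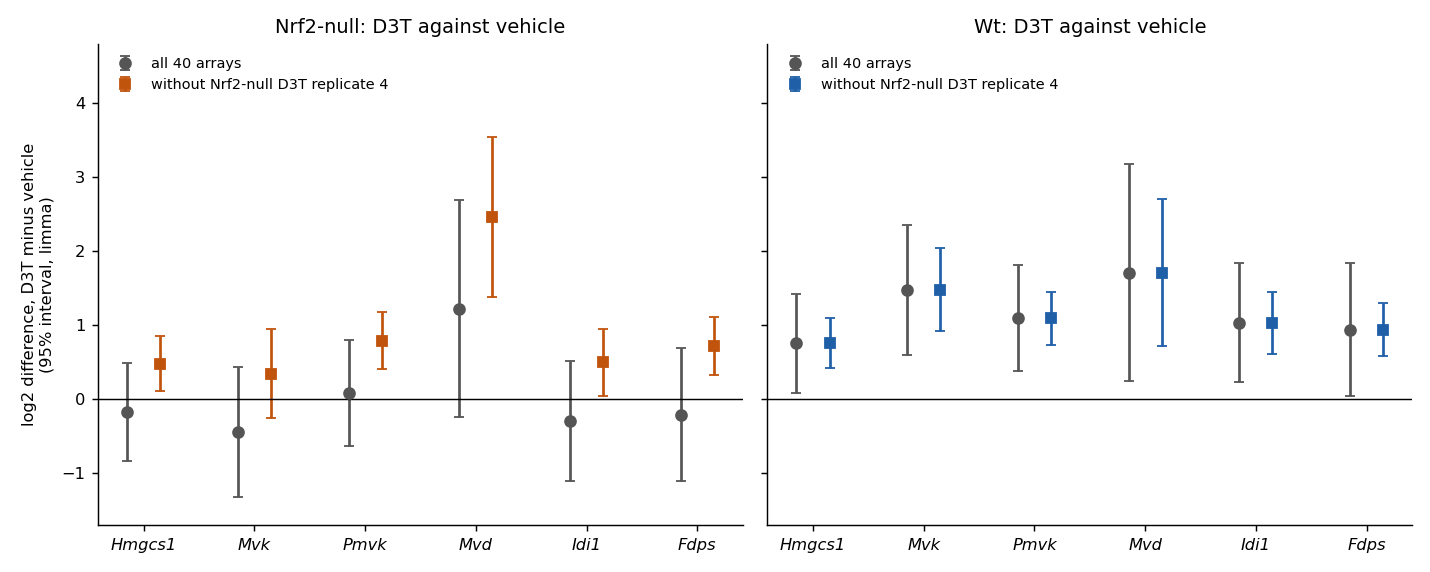
Log2 difference between D3T and vehicle for each enzyme with its 95% interval from limma, in Nrf2-null liver (left) and Wt liver (right). Circles are the fit to all 40 arrays and squares the fit without Nrf2-null D3T replicate 4. In Wt liver the estimates are the same in both fits (0.75 to 1.71) and only the intervals narrow, whereas in Nrf2-null liver the estimates themselves move up.

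The same D3T mice differed from vehicle in genes that follow the time of day. A clock score, the mean log2 level of evening genes minus that of morning genes, was -0.25 ± 0.83 in Wt D3T mice and -2.76 ± 0.14 in Wt vehicle mice (SD, n = 4 each). The summed exocrine pancreas markers (2 of 6 measured) also lay apart, at 8.84 to 9.02 in Wt D3T mice and 9.77 to 10.11 in Wt vehicle mice. The hepatocyte sums overlapped, at 18.38 to 18.44 in D3T mice and 18.39 to 18.43 in vehicle mice. Red blood cell markers (2 of 5 measured) summed to 8.78 to 9.37 in D3T mice and 9.30 to 10.28 in vehicle mice, and 1 of the 2 was called lower (median log2 difference -0.50). A fit with the clock score as a covariate is described with the other settings at the end. Beyond that fit, the part of the clock genes in the enzyme differences was not tested, nor was that of the pancreas and red blood cell markers.

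In Nrf2-null liver the result with D3T turned on replicate 4. With all 4 mice the median log2 difference of the 6 genes was -0.19 and 0 of 6 passed the test in limma (2.03% of all probe sets were called higher), none of them at an unadjusted p under 0.05. Without replicate 4 the median was 0.61, all 6 differences were positive, and 3 genes rose, against 3.23% of all probe sets. These were Pmvk, Mvd and Fdps.

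Mvd read 8.45, 8.81, 9.34 and 3.91 in the 4 Nrf2-null D3T mice, against 6.73, 6.83, 3.96 and 8.09 in the 4 Nrf2-null vehicle mice. Replicate 4 of the D3T mice and replicate 3 of the vehicle mice were both under log2 4, where the filter on dim probe sets begins, and no fold is given for them. Without the low D3T mouse the log2 difference was 2.46 (SE 0.53; adjusted p = 0.0053), and with the low vehicle mouse left out as well it was 1.65 (SE 0.39; adjusted p = 0.013).

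Pmvk read 11.38, 11.29, 11.52 and 8.56 in Nrf2-null D3T mice, against 10.69, 10.24, 10.43 and 11.07 in Nrf2-null vehicle mice. Replicate 4 was 7.1-fold below the other 3, and without it the difference was 0.79 (SE 0.19; adjusted p = 0.012). Fdps read 13.35, 13.22, 13.60 and 9.67 in Nrf2-null D3T mice, against 13.15, 12.48, 12.13 and 12.91 in Nrf2-null vehicle mice. Its replicate 4 was 13.2-fold below the others, and the difference turned with it, at -0.21 with all mice and 0.72 without replicate 4 (SE 0.19; adjusted p = 0.022). The Fdps call was lost when the low Mvd vehicle mouse was left out too (0.54; adjusted p = 0.092), which left 2 of 6 genes called, against 2.24% of all probe sets.

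Hmgcs1 read 14.88, 15.13, 15.11 and 12.42 in Nrf2-null D3T mice, against 14.77, 14.23, 14.36 and 14.87 in Nrf2-null vehicle mice. Mvk read 6.58, 6.90, 7.17 and 3.73 with D3T, against 7.21, 6.09, 5.92 and 6.92 with vehicle. Idi1 read 13.82, 14.29, 14.23 and 10.96 with D3T, against 13.60, 13.63, 13.15 and 14.09 with vehicle. Without replicate 4 their differences were 0.48, 0.34 and 0.50, and none passed the test (adjusted p = 0.12, 0.57 and 0.21). Of the other Hmgcs1 probe sets, 1433446_at did pass without that mouse (0.92; adjusted p = 0.031), whereas 1433444_at (0.49; adjusted p = 0.071) and 1433445_x_at (0.46; adjusted p = 0.076) did not. Over the 6 genes, the 3 remaining D3T mice lay above all 4 vehicle mice in 4 (Hmgcs1, Pmvk, Mvd and Fdps), against 6.69% of all probe sets. The exact permutation p was 0.11 for Hmgcs1 and 0.057 for the other 3 genes. Of the 2 red blood cell markers measured, 1 was called lower with D3T in Nrf2-null liver too, with and without replicate 4, and its part in these values was not tested.

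Under D3T, Nrf2-null liver was below Wt liver for all 6 genes, and the size again depended on replicate 4. With all mice Mvk was lower by a log2 difference of -1.80 (SE 0.43; adjusted p = 0.0076) and Idi1 by -1.49 (SE 0.40; adjusted p = 0.015), 2 of 6 genes against 3.90% of all probe sets called lower. Without replicate 4 Mvk stood at -1.01 (SE 0.30; adjusted p = 0.034) and Idi1 at -0.71 (SE 0.22; adjusted p = 0.049), against 2.99% of all probe sets. The second probe set of each gene did not pass without that mouse. The dim Mvk 1430619_a_at stood at -0.55 (adjusted p = 0.054). Idi1 1423804_a_at stood at -0.32 (adjusted p = 0.48), and on it the mice of the genotypes overlapped. The other 4 genes then lay between -0.33 and -0.22 and did not pass. Of the 6 genes, 3 had no overlap between the genotypes (Hmgcs1, Mvk and Idi1), against 5.23% of all probe sets with all mice and 8.96% without replicate 4. Of the other Hmgcs1 probe sets, 1433445_x_at had no overlap either, whereas 1433444_at, 1433446_at and 1441536_at overlapped, with and without that mouse.

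That a gene responded in 1 genotype and not in the other does not show that the genotypes differed, so the difference of the responses was tested itself. With all mice it was negative for all 6 genes, with a median log2 difference of -1.08 (Nrf2-null minus Wt), from -1.92 for Mvk to -0.49 for Mvd. None passed (0.106% of all probe sets called in either direction; Mvk adjusted p = 0.20), although Mvk and Idi1 had an unadjusted p of 0.0037 and 0.024. Without replicate 4 the median was -0.29, Mvk stood at -1.13 (95% interval -1.96 to -0.31; adjusted p = 0.22) and Mvd at 0.75 (-0.72 to 2.22), and none passed, against 0.364% of all probe sets. In vehicle mice the genotypes did not differ by the test for any of the 6 genes, with Nrf2-null minus Wt from -1.01 for Mvd to 0.12 for Mvk, against 11.1% of all probe sets called in either direction. The Mvd value includes the Nrf2-null vehicle mouse at 3.96. The clock score of the Nrf2-null vehicle mice ran from -3.31 to 3.08. Its part in these values was not tested beyond the fit with the clock score as a covariate.

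Against vehicle in Wt liver, the differences with CDDO-Im were smaller than with D3T at each of the 3 doses for each of the 6 genes. The median log2 difference of the 6 genes was -0.10 at 3 μmol/kg, 0.32 at 10 μmol/kg and 0.10 at 30 μmol/kg. The median of all probe sets was -0.13 at 30 μmol/kg, and under 0.05 in size at the lower doses. In the fit to all arrays none of the 6 genes passed at any dose, against 1.22%, 17.0% and 19.8% of all probe sets called in either direction at 3, 10 and 30 μmol/kg.

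Idi1 had a level of 14.08, 13.59, 13.63 and 13.84 in Wt vehicle mice, of 13.38, 13.95, 13.76 and 13.99 at 3 μmol/kg, of 14.21, 14.17, 14.22 and 14.49 at 10 μmol/kg and of 14.15, 13.79, 14.07 and 14.28 at 30 μmol/kg. At 10 μmol/kg it was the 1 gene of the 6 whose mice did not overlap with vehicle on the probe set of highest mean (log2 difference 0.49, exact p = 0.029), against 9.12% of all probe sets in that direction. Over single probe sets 5 of 13 did not overlap, namely both of Idi1 and 1433444_at, 1433445_x_at and 1433446_at of Hmgcs1, each with exact p = 0.029. Mvk differed by 0.71 at that dose (95% interval -0.17 to 1.59; adjusted p = 0.28), and leaving Nrf2-null D3T replicate 4 out of the fit gave an adjusted p of 0.066. The remaining genes lay between -0.20 and 0.36 at 10 μmol/kg.

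Whether members were called higher at this dose depended on the probe set and on the arrays in the fit. Without Nrf2-null D3T replicate 4, 4 of the 13 probe sets passed, against 7.70% of all probe sets called higher. For Hmgcs1 these were 1433444_at (0.46; adjusted p = 0.027), 1433445_x_at (0.40; adjusted p = 0.046) and 1433446_at (0.80; adjusted p = 0.018), and for Idi1 it was 1423804_a_at (0.69; adjusted p = 0.028). The fit to the 20 Wt arrays called 2 of the 6 genes, Idi1 (0.49; adjusted p = 0.022) and Fdps (0.36; adjusted p = 0.049), against 8.57% of all probe sets. The clock score of the Wt mice was -2.78 ± 0.22 at 3 μmol/kg, 2.78 ± 0.81 at 10 μmol/kg and -2.37 ± 0.12 at 30 μmol/kg (SD, n = 4 each). Its part in the Hmgcs1, Idi1 and Fdps values was not tested beyond the fit with the clock score as a covariate.

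In Nrf2-null liver the median difference from vehicle was 0.38 at 3 μmol/kg, 0.28 at 10 μmol/kg and 0.07 at 30 μmol/kg. With all arrays none of the genes passed, against 1.38%, 0.444% and 0.882% of all probe sets called in either direction at the 3 doses. Pmvk read 11.21, 11.78, 11.33 and 11.42 at 3 μmol/kg, against 10.69, 10.24, 10.43 and 11.07 with vehicle, and was the 1 gene of the 6 without overlap (2.17% of all probe sets higher in this way). Its difference was 0.83 (SE 0.35; adjusted p = 0.25), with SE 0.18 and adjusted p = 0.0080 when Nrf2-null D3T replicate 4 was left out of the fit, where 0.861% of all probe sets were called higher.

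Between genotypes under CDDO-Im, none of the 6 genes passed with all arrays, against 12.6% of all probe sets called in either direction at 10 μmol/kg and 33.1% at 30 μmol/kg. Without Nrf2-null D3T replicate 4 in the fit, Idi1 was lower in Nrf2-null than in Wt liver by a log2 difference of -0.67 at 10 μmol/kg (adjusted p = 0.023; 5.19% of all probe sets lower) and of -0.68 at 30 μmol/kg (adjusted p = 0.010; 8.01% lower). Pmvk was higher by 0.54 at 30 μmol/kg (adjusted p = 0.017; 28.0% higher). The 30 μmol/kg Idi1 values were 13.16, 13.51, 13.59 and 13.32 in Nrf2-null mice, against 14.15, 13.79, 14.07 and 14.28 in Wt mice, with no overlap (8.26% of all probe sets lower in this way). Pmvk at that dose and Idi1 at 10 μmol/kg did not overlap between the genotypes either, against 26.3% of all probe sets higher and 6.31% lower. The median of all probe sets differed by 0.15 between the genotypes at 30 μmol/kg.

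Markers of other liver cells and of pancreas moved with genotype under CDDO-Im. At 30 μmol/kg the exocrine pancreas sums were 9.67 to 15.25 in Nrf2-null mice and 8.72 to 9.05 in Wt mice, and both measured markers were called higher. The endothelial sums were 12.30 to 12.51 in Nrf2-null mice and 11.68 to 11.90 in Wt mice, with 3 of 5 markers called higher. The stellate cell sums (5 of 7 measured) were 13.78 to 14.09 in Nrf2-null mice and 13.47 to 13.63 in Wt mice, and the hepatocyte sums 18.44 to 18.50 in Nrf2-null mice and 18.28 to 18.33 in Wt mice. None of these 4 lists overlapped between the genotypes at that dose. Neither did the red blood cell sums, at 9.74 to 9.98 in Nrf2-null mice and 9.18 to 9.63 in Wt mice. The Kupffer cell, lymphocyte and bile duct sums overlapped. Of all probe sets, 26.3% were higher in Nrf2-null mice without overlap, and the median of all probe sets differed by 0.15. Without Nrf2-null D3T replicate 4 in the fit, 28.0% were called higher at 30 μmol/kg and 10.6% at 10 μmol/kg. In that fit 4 of 5 endothelial and 3 of 5 stellate cell markers were called higher in Nrf2-null liver at 10 μmol/kg. The part of these lists in the Idi1 and Pmvk differences was not tested. The responses to CDDO-Im themselves differed by genotype for none of the 6 genes in the fit to all arrays, against 6.66% of all probe sets in either direction at 10 μmol/kg and 10.9% at 30 μmol/kg.

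**Figure D3:**
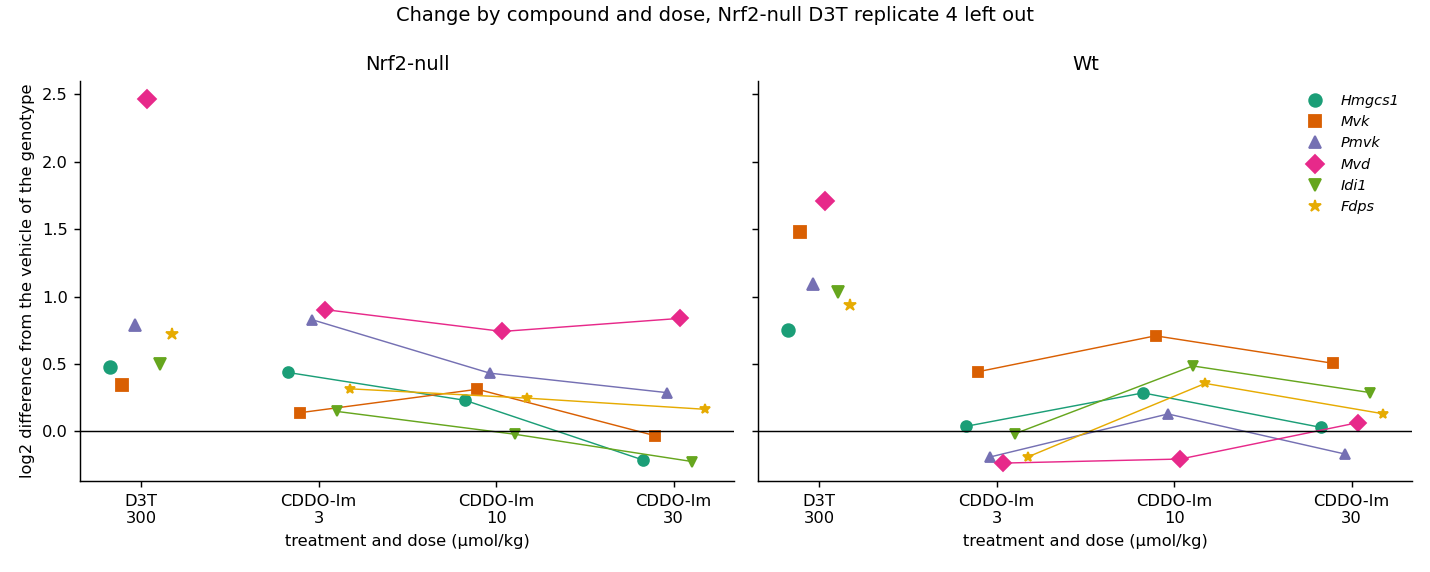
Log2 difference from the vehicle of the same genotype for D3T and for the 3 doses of CDDO-Im, with Nrf2-null D3T replicate 4 left out (Nrf2-null left, Wt right). Each symbol is 1 gene, and lines join the CDDO-Im doses. In Wt liver all 6 genes reach 0.75 to 1.71 with D3T and lie between -0.23 and 0.71 with CDDO-Im.

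The compounds were then set against each other in Wt liver. Their doses differ (10 or 30 μmol/kg CDDO-Im, 300 μmol/kg D3T), and the comparison is of these treatments and not of equal amounts. Mice given 10 μmol/kg CDDO-Im carry animal numbers of another range than D3T mice, so a possible difference in cohort cannot be told apart there. At 10 μmol/kg CDDO-Im all 6 genes were below D3T, from -0.47 for Hmgcs1 to -1.92 for Mvd. None passed with all arrays (11.2% of all probe sets called lower), with Pmvk closest at -0.96 (95% interval -1.68 to -0.25; adjusted p = 0.054). Without Nrf2-null D3T replicate 4 in the fit 5 genes were lower, all but Idi1 (-0.55; adjusted p = 0.054), against 13.1% of all probe sets.

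For Pmvk the levels were 10.56, 10.69, 10.55 and 10.82 at 10 μmol/kg CDDO-Im, against 11.70, 11.51, 11.30 and 11.96 with D3T. For Hmgcs1 they were 14.77, 14.91, 14.88 and 15.05 with CDDO-Im, against 15.37, 15.37, 15.21 and 15.53 with D3T. For Fdps, which overlapped, they were 13.12, 12.92, 12.98 and 13.38 with CDDO-Im, against 13.71, 13.71, 13.35 and 13.96 with D3T. The other 5 genes did not overlap, against 13.4% of all probe sets lower in this way. Over single probe sets 6 of 13 did not overlap. The second probe set of Idi1, 1423804_a_at, overlapped, with a difference of -0.03 (95% interval -0.84 to 0.78, exact p = 0.94). So did the dim Mvk 1430619_a_at, with a difference of -0.14 (-0.47 to 0.20, exact p = 0.60). The 3 other bright Hmgcs1 probe sets, from -0.56 to -0.33, overlapped as well, each with exact p = 0.057.

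At 30 μmol/kg CDDO-Im all 6 genes lay below D3T without overlap (22.7% of all probe sets), from -0.72 for Hmgcs1 to -1.65 for Mvd. Of these, Pmvk passed with all arrays (-1.26, SE 0.35; adjusted p = 0.0081; 21.1% of all probe sets lower), and all 6 passed without Nrf2-null D3T replicate 4 (23.4% of all probe sets). Over single probe sets 11 of 13 were lower without overlap. The exceptions were Idi1 1423804_a_at at -0.18 (adjusted p = 0.58 without that mouse, exact p = 0.43) and the dim Mvk 1430619_a_at at -0.24 (exact p = 0.34). Between 30 and 10 μmol/kg CDDO-Im no gene passed, with differences from -0.30 to 0.27, against 17.3% of all probe sets called in either direction.

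Other genes differed between the compounds in the same Wt mice. The endothelial sums were 11.63 to 11.75 at 10 μmol/kg CDDO-Im and 11.68 to 11.90 at 30 μmol/kg, against 11.96 to 12.05 with D3T. Without Nrf2-null D3T replicate 4 in the fit 3 of 5 endothelial markers were called lower at 30 μmol/kg, against 23.4% of all probe sets. The hepatocyte sums at 30 μmol/kg were 18.28 to 18.33, against 18.38 to 18.44 with D3T, where the median of all probe sets differed by -0.13. The clock score was 2.78 ± 0.81 at 10 μmol/kg and -2.37 ± 0.12 at 30 μmol/kg, against -0.25 ± 0.83 with D3T (SD, n = 4 each). Beyond the fit with the clock score as a covariate, the part of these genes in the enzyme differences between the compounds was not tested.

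In Nrf2-null liver the comparison of 10 μmol/kg CDDO-Im with D3T called none of the 6 genes (5.81% of all probe sets in either direction). Without replicate 4 of the D3T mice all 6 differences were negative, from -1.72 for Mvd (95% interval -2.80 to -0.64; adjusted p = 0.051) to -0.03 for Mvk (-0.64 to 0.57), and none passed, against 5.11% of all probe sets. Mvd was the 1 gene without overlap, against 11.2% of all probe sets lower in this way.

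The 6 genes varied together from mouse to mouse. Over the 15 pairs of genes Pearson's r was 0.66 to 0.92 over the 40 arrays (median 0.82) and 0.43 to 0.84 without Nrf2-null D3T replicate 4 (median 0.77), with Pmvk and Idi1 the loosest and Hmgcs1 and Mvk the closest pair in both. These values describe the arrays, which share their normalization and the group differences. With the group means removed and that mouse left out the range was 0.56 to 0.88. The probe sets of 1 gene followed each other likewise, at r = 0.90 to 0.98 among the 4 bright Hmgcs1 probe sets, 0.74 for Mvk, 0.90 for Mvd and 0.91 for Idi1, while the dim Hmgcs1 probe set reached 0.36 to 0.40 with the others (39 arrays).

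Among 9689 other genes, those most alike to the mean of the 6 over the 40 arrays were Dhcr7 (r = 0.950), Hsd17b7 (0.948), Nsdhl (0.926), Cyp51 (0.926), Cetn2 (0.903), Rdh11 (0.894), Fdft1 (0.891) and Sqle (0.881). The 99th percentile of all genes was 0.647. Dhcr7, Hsd17b7, Nsdhl, Cyp51, Fdft1 and Sqle encode enzymes of the later, sterol-forming steps. Without Nrf2-null D3T replicate 4, Lss (0.883) and 3110045C21Rik (0.867) took the places of Cetn2 and Rdh11, the other 6 genes stayed, and the 99th percentile was 0.571.

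The neighbouring steps of the pathway were described by lists. Of 12 measured enzymes from squalene to cholesterol, 3 rose with D3T in Wt liver in the fit to all arrays, against 1.92% of all probe sets. Without Nrf2-null D3T replicate 4 it was 9 of 12, against 3.27% of all probe sets, and their median log2 difference was 0.91. Lss, which closes the sterol ring, differed by 1.83 (adjusted p = 0.0029 with all arrays), Fdft1, which makes squalene, by 1.16 (adjusted p = 0.034), and Cyp51 by 1.11 (adjusted p = 0.087). Of 5 measured other SREBP-2 targets, 1 rose with all arrays and all 5 without that mouse (median 0.83), against the same shares of all probe sets. Nsdhl belongs to both lists.

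Genes that use isoprenoids or sense sterols were described in the same way. Ggps1, which extends farnesyl diphosphate to geranylgeranyl diphosphate, differed by 0.11 (95% interval -0.20 to 0.42; adjusted p = 0.80) in Wt liver with D3T. Of 13 measured genes of isoprenoid use (prenylation, dolichol and ubiquinone) and of 9 measured genes of sterol sensing and SREBP regulation, none was called in Wt liver in either fit, with medians of 0.05 and 0.02. Without Nrf2-null D3T replicate 4, 5.24% of all probe sets were called there in either direction. In Nrf2-null liver without replicate 4, 4 of the 12 squalene to cholesterol enzymes rose with D3T (median 0.49), against 3.23% of all probe sets. Among the 9 regulators, Srebf1, which encodes SREBP-1 (1.14; adjusted p = 0.020), and Insig1, which holds SREBP in the membrane (0.85; adjusted p = 0.0011), rose as well. With all arrays Srebf1 differed by 0.87 (adjusted p = 0.088) and Insig1 by 0.34 (adjusted p = 0.53), and Mylip was the 1 regulator called, with a difference of -0.97 (adjusted p = 0.023). Srebf1, Insig1 and Mylip are named here after their values were seen. These lists were drawn up with results of these mice known and are no independent evidence.

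**Figure D4:**
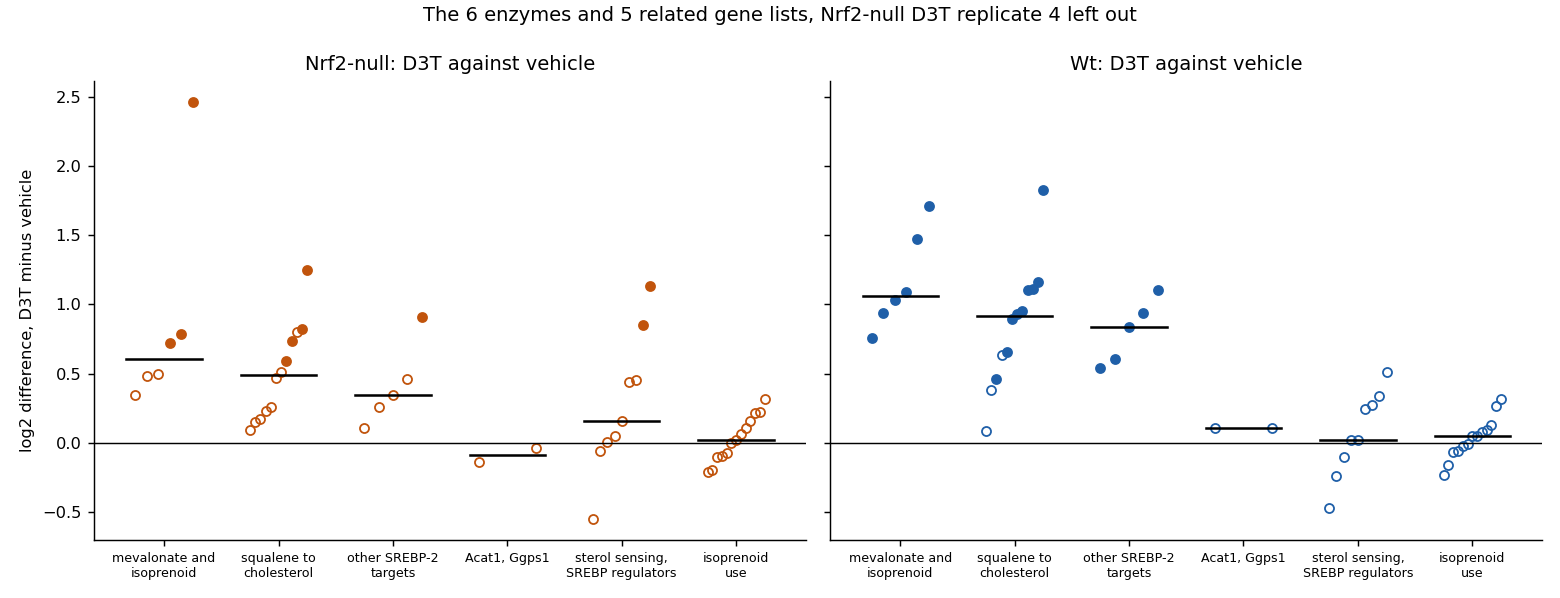
Log2 difference between D3T and vehicle for the 6 enzymes and for 5 related gene lists, without Nrf2-null D3T replicate 4 (Nrf2-null left, Wt right). Each point is a gene, filled where the adjusted p in limma was under 0.05, and lines are medians. In Wt liver the medians are 1.06 for the 6 enzymes and 0.91 for squalene to cholesterol, against 0.05 for isoprenoid use and 0.02 for the regulators.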

How the data were processed

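Liver RNA of 40 mice was measured on Affymetrix expression arrays. The deposited values are log2 intensities per probe set that the authors computed with GCRMA, a background correction by probe GC content with quantile normalization and median polish; its version, and which arrays were normalized jointly, were not stated in the sources used here. Such values compress differences near the top of the scale (highest value 16.74). Groups came from the sample labels. D3T and 30 μmol/kg CDDO-Im mice carry animal numbers of another range than the rest, so a possible difference in cohort cannot be told apart from these treatments. Gene symbols came from the platform annotation (34945 probe sets with 1 symbol), and promoters from RefSeq GRCm38.p6.

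Probe sets that reached log2 4 in at least 3 mice of some group entered 1 fit in R 4.3.3 (limma 3.58.1, statmod 1.5.0) with 10 group means and eBayes with trend and robust variances, which replaced the present calls and rank tests of the study. Benjamini-Hochberg adjustment ran over all 18935 probe sets, with a threshold of 0.05. A gene was called by its probe set of highest mean. Single values were compared with exact two-sided permutation tests (Python 3.11.15, NumPy 2.4.6, pandas 2.3.3, SciPy 1.17.1; plots with Matplotlib 3.10.9). The mice of 1 group are separate animals, and their number limits the precision. The fit was tested on simulated data.

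The members and lists were chosen with earlier results of these data known. All 6 genes are named with every probe set, with the 8 genes most alike, and from other lists at most 4 genes, those called with the largest change first. Alternatives were other expression minimums, centring or repeated quantile normalization, plain variances, 1 or each other probe set per gene, array weights, the replicate number as a block, a clock covariate, fits to fewer groups, the rank procedure of the study and leaving out single mice. Leaving out Nrf2-null D3T replicate 4 elsewhere, together with Nrf2-null vehicle replicate 3, and the fit to the 20 Wt arrays were added after seeing the data. Replicate numbers did not pair the mice.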

Additional observations from a re-analysis of the deposited data

Results flagged for a closer look

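By chance about 1 in 20 single sets of 4 mice holds 1 mouse far from the other 3. Sets that share mice and genes are not separate trials, so the count here is a description only. Of 130 such sets (13 probe sets in 10 groups), 16 held such a mouse. Of these, 8 were Nrf2-null D3T replicate 4, low on Hmgcs1 1433443_a_at (12.42, others from 14.88), 1433444_at (12.42), 1433445_x_at (12.54) and 1433446_at (10.38), Pmvk (8.56, others from 11.29), Mvd 1448663_s_at (3.91, others from 8.45), Idi1 1451122_at (10.96, others from 13.82) and Fdps 1423418_at (9.67, others from 13.22). The clock score of that mouse was 1.16, against -1.96 to -1.11 in the other 3, and its array weight in limma was 0.16, the lowest of the 40 arrays.

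The remaining 8 were spread over 7 mice. On the dim Mvk probe set 1430619_a_at, Nrf2-null vehicle replicate 1 was high at 5.48, and Nrf2-null mice were low at 4.95 (10 μmol/kg CDDO-Im replicate 4) and 4.85 (30 μmol/kg replicate 1). Pmvk was high in Nrf2-null 30 μmol/kg CDDO-Im replicate 2 (11.32, others to 10.78). Mvd was low in Wt D3T replicate 3 (8.39, others from 9.33) and in Wt 3 μmol/kg CDDO-Im replicate 1 on both probe sets (6.18 on 1448663_s_at and 4.89 on 1417303_at). Idi1 was high in Wt 10 μmol/kg CDDO-Im replicate 4 (14.49, others to 14.22).

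In 2 comparisons every mouse of 1 genotype lay on the other side of its vehicle mean from every mouse of the other genotype. For Idi1 at 30 μmol/kg CDDO-Im the response was lower in Nrf2-null than in Wt liver by -0.51 on the log2 scale (limma, adjusted p = 0.60). For Fdps at 3 μmol/kg CDDO-Im it was higher in Nrf2-null liver by 0.51, and this difference was not tested.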

How the results depend on the processing

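For Wt D3T against vehicle, 0 of the 6 genes were called in the fit to all arrays, 1 with a minimum of log2 6, with 1 probe set per gene or with a clock covariate, and 6 with array weights, in the fit to the 20 Wt arrays, to the 2 groups alone and by the rank procedure of the study. All 6 stayed positive in every setting (0.67 to 2.22), and leaving out 1 mouse gave 0 to 6 calls (1 without Wt vehicle replicate 1, 6 without Nrf2-null D3T replicate 4).

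For 10 μmol/kg CDDO-Im against D3T in Wt liver the count of 0 became 1 with a minimum of log2 6, 2 with array weights, 5 by the rank procedure and 6 in the Wt and 2-group fits (0 to 5 with 1 mouse left out). For 30 μmol/kg against D3T the count of 1 became 2 with the clock covariate and 6 with array weights and in the Wt and 2-group fits (1 to 6). For 10 μmol/kg against vehicle in Wt liver the count of 0 became 1 with array weights, in the 2-group fit and by the rank procedure, and 2 in the Wt fit. Here the rank procedure took the log2 4 minimum and the probe set of highest mean. The study used present calls and chose among redundant probe sets by pairwise p-values. On Hmgcs1 1433444_at, 1433445_x_at and 1433446_at and on Idi1 1423804_a_at, the rank procedure called 10 μmol/kg higher than vehicle and not below D3T. For Nrf2-null against Wt under D3T the count of 2 became 0 in the 2-group fit, and with 1 mouse left out it was 2 to 5 (5, 4 and 5 without Nrf2-null D3T replicates 1, 2 and 3). Under 10 μmol/kg the count of 0 became 1 in the 2-group fit (0 to 1), and under 30 μmol/kg 1 with array weights and 2 in the 2-group fit (0 to 2). For Nrf2-null liver the count of 0 for 10 μmol/kg against D3T became 1 with array weights, that for D3T against vehicle ranged from 0 to 3 with 1 mouse left out and was 2 with both low mice left out, and that for 3 μmol/kg against vehicle ranged from 0 to 1. The difference of Fdps 1423418_at in Nrf2-null D3T against vehicle was -0.21 with all mice and 0.72 without D3T replicate 4, and the other mice left out singly gave -0.59 to -0.05. Apart from the named mice, the cause of these changes was not tested.

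Replicate numbers are shared by label only: same-numbered mice of Wt D3T and vehicle correlated at -0.141 to 0.190, and a replicate block gave the same counts, 0 for Wt D3T against vehicle, 1 for 30 μmol/kg CDDO-Im against D3T and 2 for Nrf2-null against Wt under D3T. In all, 175 of 201 counts under other settings and 180 of 191 with 1 mouse left out held. With 4 mice a group and 1 low mouse of 40, limma tests of these genes in the fit to all arrays rest on how that mouse is treated. So do the comparisons with the Nrf2-null D3T group. For Wt D3T against vehicle, the exact permutation tests, the rank procedure and the fit to the Wt arrays alone do not use that mouse. In each of them all 6 genes were higher with D3T. The dim Hmgcs1 1441536_at followed the other probe sets of its gene loosely.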
